A study of Mus musculus with 52 samples.

Results

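A list of 9 genes of peroxisomal fatty acid oxidation, Acox3, Ehhadh, Hsd17b4, Acaa1a, Acaa1b, Scp2, Abcd3, Pex11a and Crat, was followed through ChIP-seq peak lists of mouse brown adipose tissue (BAT), the fat depot that burns lipid to make heat. The 9 genes were given by name, out of 21631 protein-coding loci on chromosomes 1 to 19 and X. Each was read over its annotated gene body plus 10 kb on each side (GRCm38), a window of 27.2 kb for Pex11a up to 121.1 kb for Scp2. The series title concerns how PPARG and C/EBPa respond to acute cold in BAT. Of 52 samples, 35 ChIP libraries had a peak list and 17 inputs had none used here.

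The mice were kept at room temperature (RT) or given 4 h of cold stress. PPARG was profiled in WT mice (3 RT, 3 cold), and ERR1 in WT mice with 1 library per condition. PPARA was profiled in HA-PPARA KI mice (2 RT, 3 cold), PGC1A in PGC1A-HIsHA KI mice (3 cold), CEBPA in HA-CEBPA KI mice (3 RT) and CEBPB in HA-CEBPB KI mice (2 cold). All 4 of these were pulled down with 1 Cell Signaling tech antibody, so they were read through knock-in alleles and not in plain WT mice. PGC1A library 3 carried the genotype label HA-CEBPA KI and was placed by its title. By the input titles, PGC1A library 1 shared a WT cold input with PPARG, while libraries 2 and 3 had a PGC1A-HIsHA KI input. H3K27ac marks active promoters and enhancers, and its lists came from a WT cohort (3 RT, 3 cold) and from TXNIP WT and TXNIP KO mice (2 RT and 2 cold of each genotype). The labels used here gave no age, no sex and no word on which cells lack Txnip. Whether replicates came from separate animals is not stated, so a p-value here measures only how far these samples scatter, and that scatter may be technical.

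Peroxisomes shorten very long, branched and dicarboxylic fatty acids. Abcd3 encodes a transporter of the peroxisomal membrane, Acox3 an acyl-CoA oxidase that takes the first step with branched substrates, and Ehhadh and Hsd17b4 the L- and D-bifunctional enzymes of the middle steps. Acaa1a and Acaa1b encode thiolases, and Scp2 a gene with a thiolase and a lipid-transfer product. Crat makes acetylcarnitine, a form in which chain-shortened units leave the organelle, and Pex11a helps peroxisomes elongate and divide. Several of these genes are classic targets of PPARA in liver. PPARs bind as partners of RXR to a direct repeat of AGGTCA-like sites, and PGC1A is a coactivator that is recruited by such receptors.

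The promoters of 7 of the 9 genes were found in the RefSeq promoter table (GRCm38.p6), as 8 windows of 250 bases before to 50 after a listed start site. Crat and Hsd17b4 had no entry. The sequences shown are examples of upstream bases from promoter windows where the peak lists differed between conditions or between gene copies. The Scp2 window held a PPARA peak in 2 of 2 RT and 0 of 3 cold lists. The windows of Pex11a, not printed, and of Acaa1b had the same PPARA pattern without an AGGTCA. The Scp2 window was the only member window with a complete AGGTCA half-site (capitals), on chr4:108118548-108118797, minus strand. All 250 of these Scp2 bases lie inside the annotated gene body, which begins at -26.42 kb from this listed start site.
Scp2: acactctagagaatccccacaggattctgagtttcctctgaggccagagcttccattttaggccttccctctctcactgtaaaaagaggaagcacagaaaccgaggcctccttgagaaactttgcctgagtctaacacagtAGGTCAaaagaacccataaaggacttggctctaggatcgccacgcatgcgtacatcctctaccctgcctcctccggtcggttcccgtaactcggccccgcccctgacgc
The Acox3 window held a PPARG peak in 3 of 3 RT and 1 of 3 cold lists, and its bases up to the annotated gene start are on chr5:35582784-35582980, plus strand.
Acox3: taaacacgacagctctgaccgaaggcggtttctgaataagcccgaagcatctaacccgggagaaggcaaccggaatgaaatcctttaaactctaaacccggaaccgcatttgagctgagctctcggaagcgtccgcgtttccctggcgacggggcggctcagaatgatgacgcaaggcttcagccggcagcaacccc
Acaa1a and Acaa1b are near-identical copies whose promoter windows held different peaks. The Acaa1b window had PPARG in all 6 lists, PPARA in 2 of 2 RT and 0 of 3 cold lists, and no CEBPA, CEBPB or ERR1 peak (chr9:119157094-119157343, minus strand). PPARG peaks reached only 27 to 82 of its 300 bases at RT and 22 to 124 in cold, against all 300 in the Acaa1a window. The Acaa1a window had PPARG, PPARA, CEBPA, CEBPB and ERR1 in every list of each. The Acaa1a stretch on chr9:119341101-119341130, plus strand, shows its match to the C/EBP core TTGCNNAA, read on the opposite strand (capitals). That stretch also lies inside the annotated gene body.
Acaa1b: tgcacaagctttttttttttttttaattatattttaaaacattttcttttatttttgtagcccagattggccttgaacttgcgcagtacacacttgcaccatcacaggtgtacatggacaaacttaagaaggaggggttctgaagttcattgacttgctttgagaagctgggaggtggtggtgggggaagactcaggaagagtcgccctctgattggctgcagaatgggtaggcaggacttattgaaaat
Acaa1a: tctacaaaaggTTGTGCAAacttggaagtt

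Motifs were searched on both strands of the 300 bases. AGGTCA was in 16.3% of all 32851 promoter windows and in 1 of the 8 member windows, that of Scp2, from 109 to 104 bases before the start site. TTGCNNAA was in 10.8% of all windows and in those of Acaa1a and Abcd3. The direct repeat AGGNCANAGGNCA (0.381% of all windows), the ERR element TCAAGGTCA (0.423%) and TGACGTCA (1.79%) had no match in a member window. The half-site can lie inside the ERR element and the direct repeat, so these 3 searches overlap. A match is a match of letters, and the absence of one says only that these letters are not in these windows.

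Pex11a had the largest covered share of its window of the 9 genes in 9 of 15 groups, and Crat in the other 6, which were PGC1A, H3K27ac of the WT cohort at RT and the 4 Txnip groups. Among all loci, Pex11a was at the 97.5th to 99.9th percentile of every group mean of the 7 targets. Its window also holds Plin1, the gene of the lipid droplet coat protein, and Wdr93, and 1 of its sites bound by all 6 factors lies in the Plin1 body. Crat was at the 94.9th to 99.8th percentile, in a window that also holds Dolpp1 and Ptpa. At RT, PPARG peaks covered 35.4 ± 4.4% of the Pex11a window (SD, n = 3), then 19.2 ± 0.10% at Crat, 16.5 ± 0.87% at Acaa1b, 15.8 ± 3.1% at Ehhadh and 13.9 ± 4.5% at Acaa1a. The last 3 do not differ beyond their spread. Scp2 (9.66 ± 0.54%), Acox3 (6.11 ± 0.93%), Abcd3 (4.71 ± 0.93%) and Hsd17b4 (2.80 ± 0.24%) followed, of which Acox3 and Abcd3 lie within their spread of each other. In cold the order was the same but for Crat (13.4 ± 2.4%) below Acaa1b (15.7 ± 0.52%). Hsd17b4 had no PGC1A peak and no ERR1 peak at RT. Peaks in a window cannot be assigned to 1 of the genes that share it, and the windows of Acox3 (Trmt44), Acaa1a (Myd88, Xylb) and Acaa1b (Dlec1) share bases with other genes as well.

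**Figure D1:**
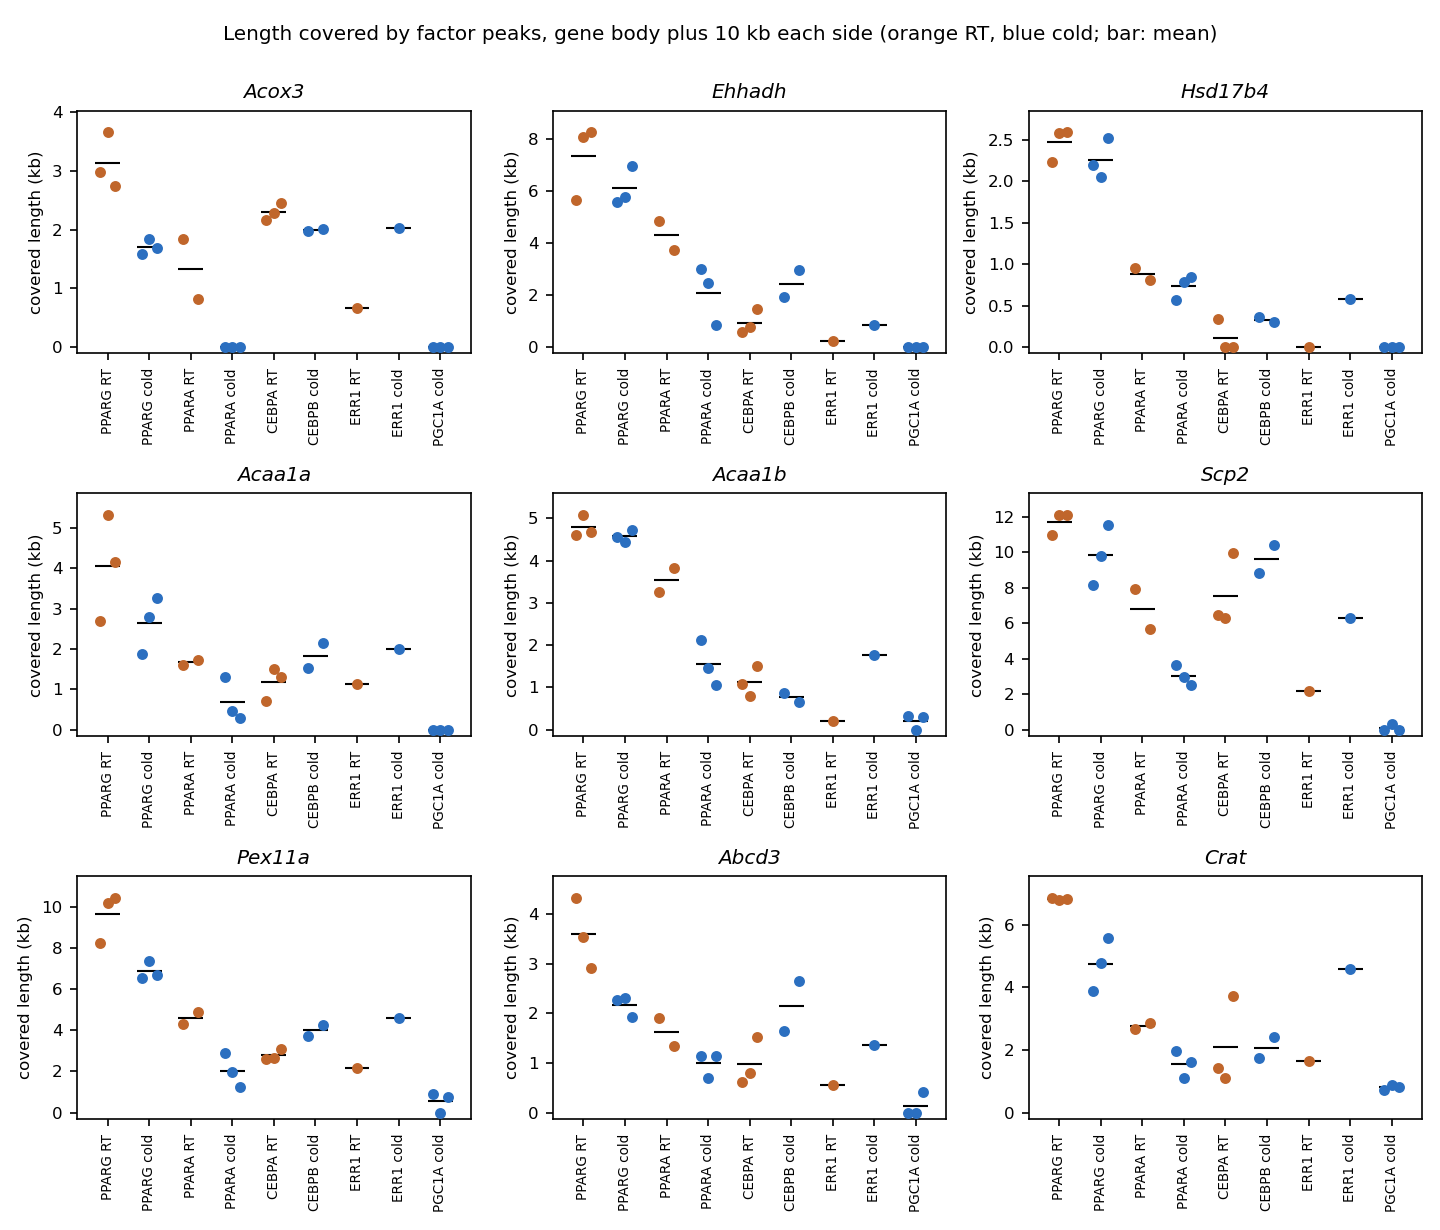
Covered length in kb (vertical axis, from 0) of each gene window in the 21 factor libraries, 1 point per library, RT in orange and cold in blue, with the group mean as a bar. Acox3 has no PPARA cover in any of the 3 cold libraries, and in PPARG its 3 cold libraries (1.577 to 1.841 kb) lie below its 3 RT libraries (2.742 to 3.661 kb).

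Factor peaks at the 9 genes were merged into 71 sites, of 68710 in the genome, where a site belonged to a target if at least 2 libraries of 1 group, or its only library, held it. PPARG held 49 of the 71 (69.0%, against 65.3% of all sites), and all 9 genes had at least 1. PPARA held 29 (40.8% against 26.1%), ERR1 44 (62.0% against 58.0%), CEBPB 30 (42.3% against 36.5%) and CEBPA 24 (33.8% against 35.9%). PGC1A held 4 (5.63% against 3.53%), in Crat, Pex11a and Acaa1b. H3K27ac peaks of the WT cohort lay on 74.6% of the 71 sites at RT, against 51.1% of all sites. These shares are descriptions, with no test.

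All 6 factors shared 4 of the 71 sites (5.63%, against 2.10% of all sites). The Crat site, chr2:30413786-30416860, crosses the upper end of the Crat body into Ptpa and was in 21 of 21 factor libraries, with PGC1A in 3 of 3 lists at a fold enrichment of 9.45 to 13.3. Fold enrichments are the authors' own value for a peak, and were used only to describe it. Of the other 3 sites, 2 lay in the Pex11a window, at chr7:79731307-79733583 inside Plin1 and at chr7:79733693-79736079. The last was upstream of Acaa1b at chr9:119164262-119166093, at -8.08 kb from the start site. PGC1A peaks at Acaa1b and Pex11a were in libraries 1 and 3 and not in library 2. Without library 3, whose genotype label differs, PGC1A was in 1 of 2 lists there and in 2 of 2 at Crat.

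Acox3, the oxidase gene, had less cover in cold than at RT in PPARG, PPARA and H3K27ac. Its PPARG cover was 2.987, 3.661 and 2.742 kb at RT and 1.577, 1.841 and 1.685 kb in cold. Every cold library was below every RT library. After scaling to the library total the change was -0.44 ± 0.12 on the log2(covered bp + 500) scale (SE; limma, Benjamini-Hochberg adjusted p = 0.0495). That made Acox3 the only called member for PPARG, where 10.2% of 14105 loci were called and 5.13% were called lower. The call was at the threshold: leaving out any of the 6 libraries gave an adjusted p of 0.0753 to 0.157, and no filter (0.0532), the gene body alone (0.0945), 25 kb on each side (0.116) and the replicate block (0.101) ended it too.

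PPARA cover of Acox3 was 1.836 and 0.817 kb at RT and 0 in each of the 3 cold libraries. The locus reached the minimum of 2 covered libraries only through the RT libraries, where it is high, so its fitted change and call (-1.28 on the log2 scale) are no support for a difference and are not counted below.

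The Acox3 window held 7 factor sites, which were chosen for description after their values were seen. At chr5:35576088-35577093, at -6.44 kb from the start site, PPARG was in all 6 lists (fold enrichment 9.29 to 18.1 at RT and 5.07 to 6.03 in cold). PPARA held that site in 2 of 2 RT lists (7.73 to 9.07) and 0 of 3 cold lists. The start-site peak, chr5:35582687-35583340, had PPARG in 3 of 3 RT lists (4.76 to 4.91) and 1 of 3 cold lists (6.19). These PPARG peaks were weak, as the median fold enrichment of the RT lists was 6.73 to 7.05. CEBPB was at the start site in 2 of 2 lists, ERR1 in both and H3K27ac in all 14 libraries. The upstream bases of this start site are those printed above. Near the 3' end, chr5:35612971-35614808 had CEBPA in 3 of 3 lists (31.4 to 42.0) and CEBPB in 2 of 2 (41.8 to 56.0). PPARA was there in 2 of 2 RT and 0 of 3 cold lists. An intragenic site at chr5:35609102-35609938 kept PPARG in all 6 lists, with CEBPA in 3 of 3 and CEBPB in 2 of 2. H3K27ac lay on it in 2 of 3 RT and 0 of 3 cold libraries of the WT cohort.

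No other member was called for PPARG, whose lists covered 31.3 to 39.3 Mb at RT and 23.8 to 29.5 Mb in cold. Ehhadh had 5.659, 8.098 and 8.270 kb at RT and 5.582, 5.781 and 6.967 kb in cold, ranges that overlap. The median change of the 9 members was -0.13 (log2), against 0.03 over all loci tested, with 5 below 0 and 4 above. Of 63 PPARG sites at the 9 genes, 31 were in all 6 lists (49.2%, against 37.9% of all PPARG sites). At an overlap of 1 bp, 1 was gained, meaning in all cold and no RT lists (1.75% of all sites were), and 0 were lost (5.27% of all). The lost count depended on the setting: it was 4 with stricter peaks and 6 where a list had to cover at least 50% of the site, with 1 gained in each. With 1 library left out, the sum of both kinds was 2 (RT library 1 or cold library 2), 3 (RT library 3 or cold library 1) or 5 (cold library 3).

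PPARA lists were much shorter in cold, with 7317 to 11107 peaks over 3.32 to 5.72 Mb against 23589 to 26388 peaks over 13.7 to 16.1 Mb at RT. Changes at the members are therefore given both in kb and relative to the list total. In kb, cover was lower in cold: Scp2 had 7.930 and 5.689 kb at RT and 3.654, 2.996 and 2.504 kb in cold. Crat had 2.675 and 2.864 kb at RT and 1.971, 1.114 and 1.607 kb in cold. As a share of the list total, both were higher in cold, by 0.66 ± 0.17 for Scp2 (log2, SE; limma adjusted p = 0.0401) and 0.83 ± 0.21 for Crat (adjusted p = 0.0371). With lists cut to equal length both calls ended, at 0.28 for Scp2 (adjusted p = 0.346) and 0.26 for Crat (0.437). Scp2 was also not called with the replicate block (0.0587), 25 kb on each side (0.0504) or stricter peaks (0.0567), nor Crat without the filter (0.0601). With Acox3 left aside, 2 members were called, both higher, where 35.3% of 10231 loci were called, 4.21% higher and 31.1% lower.

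In scaled PPARA cover 8 of 9 members were above 0, all but Acox3, and the member median was 0.59 against -0.44 over all loci tested. RT lists covered 10686 to 11414 loci and cold lists 4378 to 6239. A locus covered only in the RT lists passes the filter, as Acox3 did, and is lower in cold by construction. The median of all loci and the 31.1% called lower include such loci, so they are no neutral background for the members. Without scaling the median of all loci was -1.09, and 0 members were called higher, while Acaa1b (-1.01), Scp2 (-1.04) and Pex11a (-1.05) were called lower. The unscaled Crat change was -0.68 (adjusted p = 0.0534). The direction of these 4 changes flips with the scaling. So does that of Ehhadh (-0.99 without scaling), Acaa1a (-0.96), Hsd17b4 (-0.17) and Abcd3 (-0.51), none of them called either way. Acox3 was below 0 either way. Leaving out either RT library left 0 called members. Scp2 then had an adjusted p of 0.688 without the first RT library and 1.00 without the second, and Crat 0.828 and 0.328. Scp2 was also not called without cold library 2 (adjusted p = 0.0696) or cold library 3 (0.0905), nor Crat without cold library 1 (0.0595). Hsd17b4 was called higher without cold library 1 (1.38, 0.0113) and Ehhadh without cold library 3 (0.97, 0.0329).

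Of 48 PPARA sites at the 9 genes, 14 were in all 5 lists (29.2%, against 11.6% of all PPARA sites). Of the 48, 1 was gained, at Scp2, and 9 were lost (0.248% and 24.1% of all PPARA sites). The lost sites were 3 in the Scp2 window, 2 each in those of Acox3 and Acaa1a, and 1 each in those of Pex11a and Acaa1b. At the Acaa1b start site, chr9:119156536-119157334, PPARA was in 2 of 2 RT lists (fold enrichment 5.88 to 6.25) and 0 of 3 cold lists. PPARG peaks of all 6 lists overlapped it, but their fold enrichments (12.7 to 15.6) are those of a wider merged factor site, chr9:119154817-119157334. In that wider site PPARA was also in 3 of 3 cold lists (6.16 to 10.3), so a PPARA peak close by was kept in cold. The H3K27ac peak at the start site was in 3 of 3 RT and 0 of 3 cold libraries of the WT cohort, and in all 8 Txnip cohort libraries. Read handling between Acaa1a and Acaa1b is not given in the sources used here, so values of these copies are uncertain.

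Scp2, whose products carry lipids and cleave branched chains, held the only gained PPARG and the only gained PPARA site of the 9 genes, and they were the same place. It lies at chr4:108138930-108140094, inside the annotated gene body and at -20.96 kb from the listed start site used for the promoter above. PPARG was there in 0 of 3 RT lists and 3 of 3 cold lists, with fold enrichments of 23.5, 25.2 and 23.4. PPARA was there in 0 of 2 RT lists and 3 of 3 cold lists (14.4, 14.01 and 16.2). CEBPB, profiled in cold, was there in 2 of 2 lists (11.9 and 16.9), CEBPA, profiled at RT, in 1 of 3 (3.75), and ERR1 and PGC1A in none. This site was known from earlier results of these data and is described without a test.

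**Figure D2:**
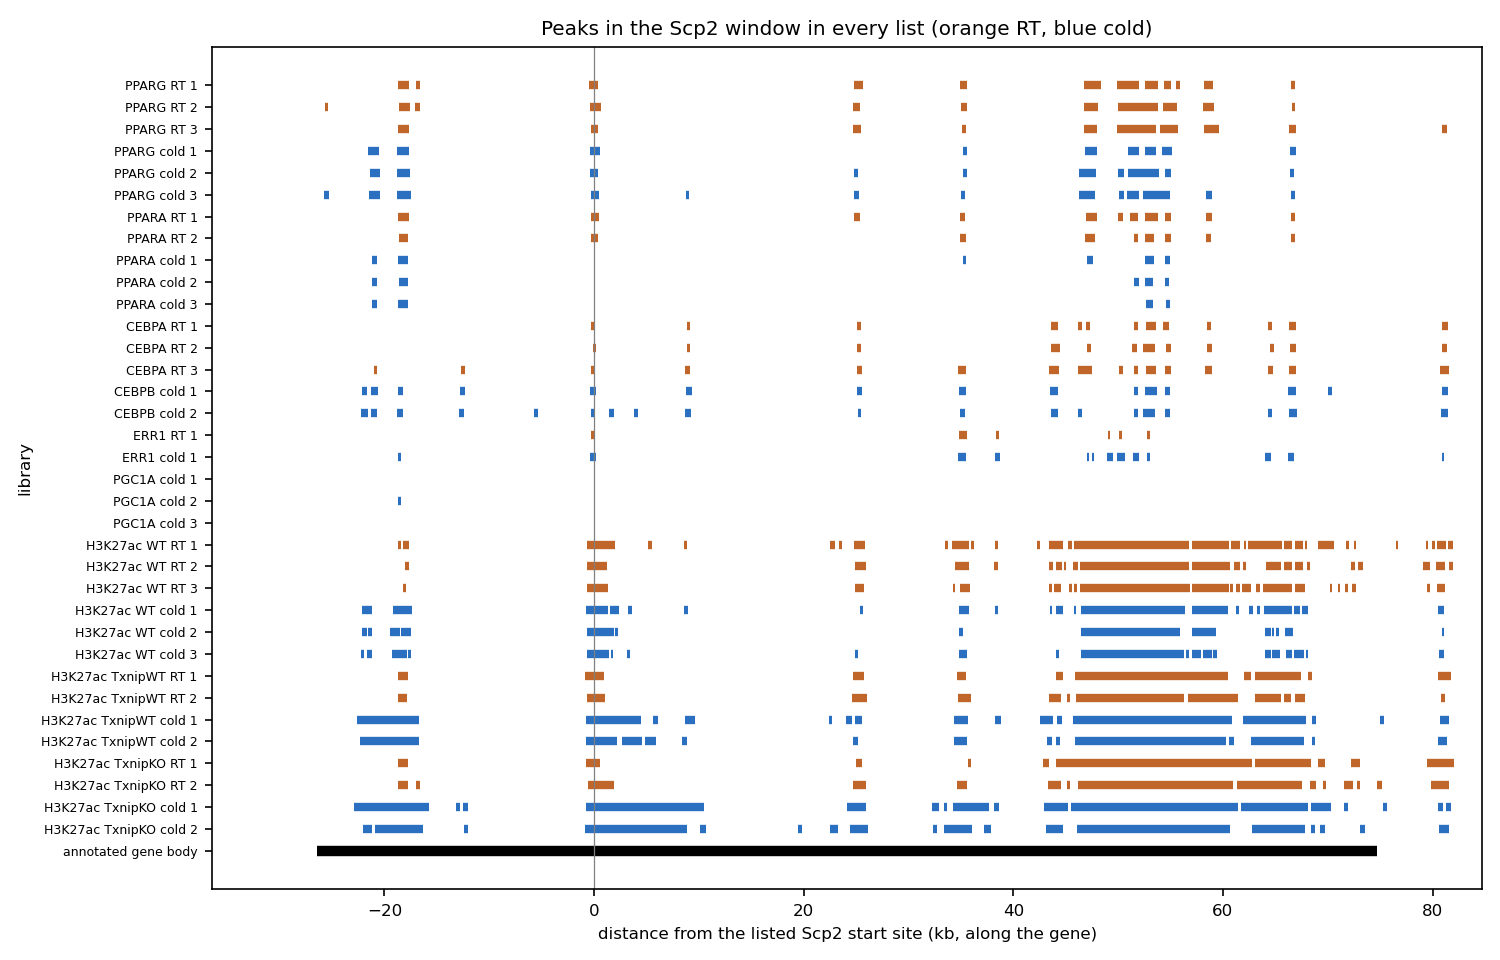
Peaks of all 35 lists (1 row per library, RT orange, cold blue) along the Scp2 window, by distance in kb from the listed start site, with the annotated gene body in black. A PPARG, PPARA and CEBPB peak at -20.96 kb appears in the cold rows, next to a peak at -18.15 kb that all PPARG and PPARA rows hold.

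H3K27ac at this Scp2 site was in 0 of 3 RT and 3 of 3 cold libraries of the WT cohort, with peaks whose summits were 360 to 399 bp from the middle of the site. In the Txnip cohort it was covered in 0 of 4 RT and 4 of 4 cold libraries. Those peaks were wide, running from -22.65 to -16.71 kb in the first cold TXNIP WT library. Their summits were at -2923 to -2818 bp from the middle of the gained site, in chromosome coordinates. As the gene is on the minus strand, these summits lie in the neighbouring site at -18.15 kb and not in the gained site. The neighbouring site at -18.15 kb, chr4:108136027-108137361, was held at both temperatures, with PPARG at fold enrichments of 15.9 to 22.2 at RT and 23.5 to 37.7 in cold. In all, 12 RT libraries of PPARG, PPARA and H3K27ac lacked the gained site and 13 cold libraries had it. Of 1044 PPARG sites gained in the genome, 20 were also held by PPARA in cold only (1.92%), 55 by H3K27ac of the WT cohort (5.27%), 109 by that of TXNIP WT (10.4%) and 123 by that of TXNIP KO mice (11.8%). Only 4 (0.383%) met all 4, of which 1 was the Scp2 site.

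**Figure D3:**
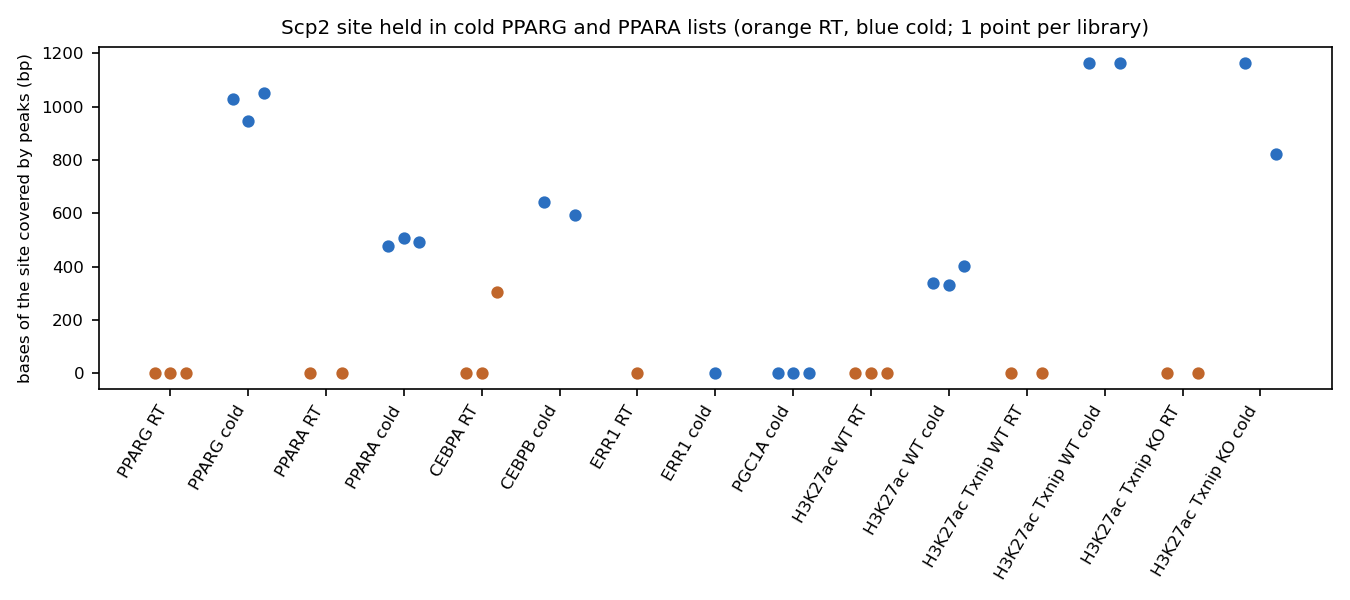
Bases of the gained Scp2 site covered by peaks (vertical axis, bp) in each library, by target, cohort and temperature (RT orange, cold blue). Every RT point of PPARG, PPARA and H3K27ac is at 0 and every cold point is above 0; the Txnip cohort points come from wide H3K27ac peaks with distant summits.

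Elsewhere in the Scp2 window PPARA was lost at the listed start site, chr4:108118040-108118823, where it had been at 7.08 to 11.4 at RT. PPARG stayed there in all 6 lists (7.39 to 10.2 at RT, 7.59 to 7.96 in cold), as did H3K27ac in all 14 libraries. At chr4:108059599-108060186 PPARA was in 2 of 2 RT and 0 of 3 cold lists, and PPARG in 3 of 3 RT (16.1 to 36.6) and 1 of 3 cold lists (6.09). At the remaining lost site, chr4:108051661-108052090, PPARG, CEBPA and CEBPB were in every list.

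In H3K27ac of the WT cohort, Acox3 and Ehhadh were lower in cold. Acox3 had 6.570, 3.808 and 5.010 kb at RT and 3.013, 2.814 and 2.851 kb in cold, so the groups did not overlap. The change was -0.63 ± 0.13 (log2, SE; limma adjusted p = 0.0101) and held in all 16 alternatives (adjusted p 0.00257 to 0.0455). Ehhadh had 14.125, 13.469 and 13.066 kb at RT and 11.390, 7.512 and 8.422 kb in cold. Its change was -0.48 ± 0.12 (limma adjusted p = 0.0259). That call was lost without cold library 2 (adjusted p = 0.111), cold library 3 (0.0991), RT library 1 (0.0704) or RT library 2 (0.0958), and with the gene body alone (0.0789), stricter peaks (0.0622) or a separate fit (0.0644). Acaa1b was just past the threshold (-0.48, limma adjusted p = 0.0535). It was called lower with the gene body alone (0.00983), lists of equal length (0.0264) or the replicate block (0.0130). Without cold library 1, Acaa1b (0.0149) and Scp2 (0.0391) were called lower too, and Acaa1b also without RT library 3 (0.0192).

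Thus 2 of 9 members were called for H3K27ac in the WT cohort, both lower, where 11.9% of 15163 loci were called and 6.55% were called lower. In all, 8 of 9 members were below 0, with a median of -0.28 against 0.03 over all loci, and Pex11a was at 0.08. Pex11a had 17.128 to 17.806 kb in each of these 6 libraries. Of 81 H3K27ac regions, 1 was gained and 2 lost, all 3 in the Scp2 window (1.14% and 2.43% of all regions). The Txnip mice did not repeat the shift of the members below 0. In TXNIP WT mice 5 members were below 0 and 4 above, with a median of -0.04 against 0.01 over all loci. In TXNIP KO mice 5 were below and 4 above as well (-0.10 against -0.03). Ehhadh was at 0.25 in TXNIP WT and -0.12 in TXNIP KO mice, called in neither.

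**Figure D4:**
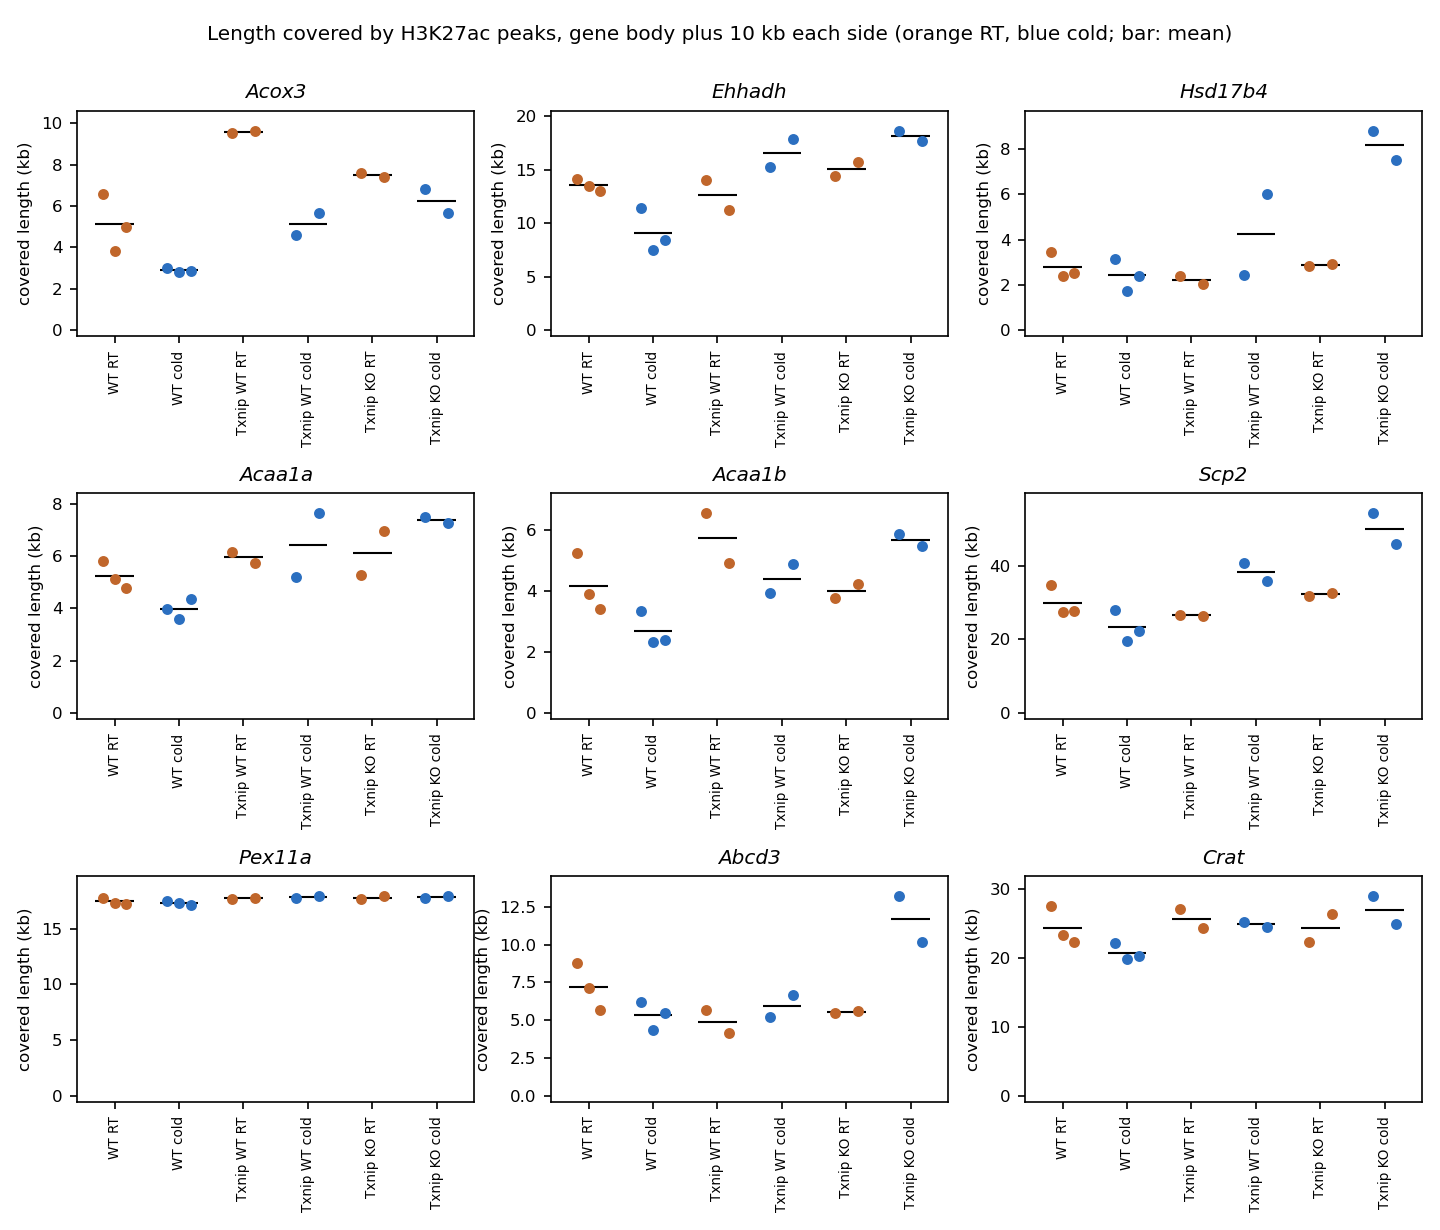
H3K27ac-covered length in kb (vertical axis, from 0) of each gene window in the 14 libraries, 1 point per library, RT in orange and cold in blue, with the group mean as a bar. For Acox3 each of the 3 cohorts has its cold points below its RT points, while Abcd3 and Hsd17b4 are highest in cold TXNIP KO libraries.

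In TXNIP WT mice Acox3 was again lower in cold, with 9.540 and 9.645 kb at RT and 4.594 and 5.659 kb in cold. The change was -0.96 ± 0.16 (log2, SE; limma adjusted p = 0.00606), and it was the only called member where 6.92% of loci were called and 2.39% were called lower. Without RT library 2 the adjusted p was 0.0562. Without cold library 1 Hsd17b4 was called higher (1.08, adjusted p = 0.0388); its libraries were 2.376 and 2.027 kb at RT and 2.449 and 6.008 kb in cold. In kb Scp2 was higher in cold in these mice, at 26.737 and 26.297 kb against 40.644 and 35.786 kb, but its scaled change of 0.39 ± 0.16 did not pass (adjusted p = 0.173).

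In TXNIP KO mice 4 of 9 members were called, 2 higher and 2 lower, where 14.2% of loci were, 7.73% higher and 6.49% lower. Abcd3, the transporter gene, had 5.471 and 5.606 kb at RT and 13.204 and 10.156 kb in cold (0.63 ± 0.19, SE; limma adjusted p = 0.0470). At equal list length the Abcd3 change was 0.26 (adjusted p = 0.301), and with stricter peaks 0.36 (0.189), and it was not called with 25 kb on each side (0.0685) or a separate fit (0.0584). Hsd17b4, the D-bifunctional enzyme gene, had 2.824 and 2.914 kb at RT and 8.814 and 7.496 kb in cold (0.99 ± 0.28, adjusted p = 0.0366; 0.0707 with the gene body alone and 0.0808 with a separate fit). For both genes each cold library lay above each RT library in kb. With 2 libraries per group that says little: after scaling, RT and cold did not overlap for any member, called or not. Acox3 was lower, from 7.602 and 7.404 kb to 6.843 and 5.678 kb (-0.61 ± 0.16, adjusted p = 0.0302), and Pex11a was called lower at -0.37 ± 0.11 (adjusted p = 0.0444). The Pex11a call came from the scaling: in kb it was 17.690 and 17.911 at RT and 17.802 and 17.931 in cold, and the unscaled change was 0.0052. It was also not called at equal list length (0.126), with the gene body alone (0.0736), stricter peaks (0.0686), the replicate block (0.0536) or a separate fit (0.0819).

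The cold TXNIP KO lists were the longest, at 102 to 108 Mb against 73.2 to 87.6 Mb at RT. Without scaling the median of all loci was 0.30, and 3 members were higher and 0 lower; Acox3 was then at -0.25 (adjusted p = 0.325). All 4 calls were lost without either cold library or without RT library 1, with adjusted p from 0.0568 to 0.289, and Hsd17b4 (0.111) and Abcd3 (0.156) also without RT library 2. Regions gained in cold numbered 9 of 54 (11.4% of all TXNIP KO regions were gained), with 6 at Abcd3, 2 at Scp2 and 1 at Ehhadh. In bulk tissue more mark per cell and more cells of a type that carry it cannot be told apart. Summed H3K27ac over the 7 macrophage and lymphocyte marker loci was 33.3 to 63.7 kb in cold and 15.1 to 24.7 kb at RT in TXNIP KO mice, with 2 of 6 tested loci called higher. Over the 7 fibroblast and preadipocyte loci it was 47.7 to 48.2 kb in cold and 22.2 to 33.3 kb at RT, with 0 called. Over the 5 Schwann cell and nerve loci it was 11.7 kb in both cold libraries and 6.42 to 7.27 kb at RT, with 1 of 3 called higher. Endothelial loci had 310.6 to 317.6 kb in cold and 271.7 to 315.1 kb at RT, with 4 of 10 called lower after scaling. The part of these cells in the results was not tested.

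The genotypes were compared directly. No member was called between TXNIP KO and TXNIP WT at RT (0.0791% of loci were called) or in cold (0.442%), nor for the difference of their cold responses (0.033%), by limma. At an unadjusted p under 0.05 there were 2, 2 and 1 members. The lowest adjusted p was that of Abcd3 in cold, 0.73 ± 0.19 higher in KO (adjusted p = 0.102). Without TXNIP WT cold library 2, Hsd17b4 was called higher in KO in cold (1.29, adjusted p = 0.0455). The calls of Abcd3 and Hsd17b4 in TXNIP KO alone are therefore not shown to differ from TXNIP WT. The Txnip window itself had 22.6 to 23.4 kb of H3K27ac in KO and 21.7 to 22.5 kb in WT libraries, and this mark does not check the deletion.

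The cold responses of TXNIP WT mice and the WT cohort differed for 0 members by limma (0.224% of loci were called), and for 2 at an unadjusted p under 0.05. These were Ehhadh (0.74 ± 0.19 higher in TXNIP WT, adjusted p = 0.121) and Scp2 (0.66 ± 0.20, adjusted p = 0.161). Without WT cold library 1, Ehhadh was called (0.91, adjusted p = 0.0208).

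**Figure D5:**
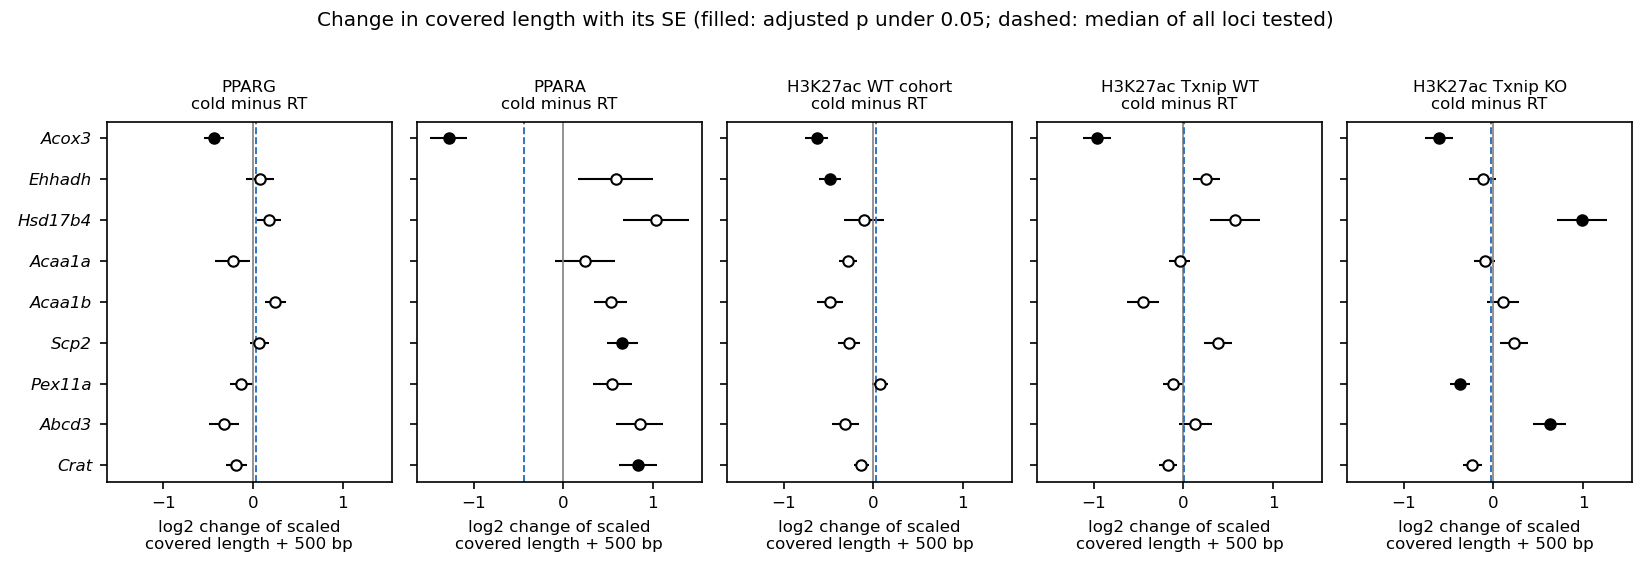
Cold minus RT change of scaled covered length (log2 of length + 500 bp, horizontal axis) with its SE for the 9 genes in 5 comparisons; filled points have an adjusted p under 0.05 and the dashed line is the median of all loci tested. Acox3 is below 0 in all 5 panels, of which the PPARA point is no support because the locus passed the filter only through its RT libraries; without scaling its TXNIP KO change is not called.

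ERR1 had 1 library per condition, so no test was possible. Its list held 16020 peaks (5.91 Mb) at RT and 45800 peaks (18.2 Mb) in cold. Scp2 had 2.187 and 6.305 kb, Crat 1.656 and 4.588 kb, Pex11a 2.162 and 4.587 kb and Acox3 0.662 and 2.030 kb, at RT and in cold. Scaled to the list total, 0 members moved past 2-fold, where 12.4% of loci did, and the differences ran from -0.62 (Acaa1a) to 0.86 (Acaa1b). The member median was -0.08 against 0.27 over all loci; unscaled, 5 members were past 2-fold and the median was 1.11 against 0.91. Of 57 ERR1 sites at the 9 genes, 25 were in both lists (43.9%, against 31.5% of all ERR1 sites), 32 in cold only (66.7% of all sites were) and 0 at RT only (1.77% of all).

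The wider pathway was read from 2 lists, whose counts stand beside the shares of all loci called higher and lower. Of 33 tested other genes of peroxisomal fatty acid oxidation and transport, 2 were higher and 2 lower in PPARG (5.04% and 5.13% of all loci): Acot5 (0.92 ± 0.17) and Acot8 (0.48), both acyl-CoA thioesterases, and Eci3 (-1.48), an enoyl-CoA isomerase, and Acsl1 (-0.31), an acyl-CoA synthetase. In scaled PPARA, 9 of 30 were higher and 4 lower (4.21% and 31.1% of all loci), among them Acot5 (1.20), Acot12 (1.07) and Crot (-1.35), the carnitine octanoyltransferase. Whether the 4 lower loci passed the filter only through RT libraries, as Acox3 did, was not checked. The calls of these 4 are therefore no support for a difference. The 9 higher calls are shares of the list total, which was much smaller in cold. Without scaling, 8 of all 10231 loci were called higher and 6851 lower. Whether any of the 9 was among those 8 was not checked. In H3K27ac of the WT cohort 1 of 33 was higher, Acot5 (1.28), and 5 were lower (5.39% and 6.55% of all loci), among them Eci3 (-1.48) and Abcd2 (-1.15). In TXNIP WT mice 3 were higher and 1 lower (4.54% and 2.39%), with Acot3 at 2.15, Acot5 at 1.87 and Eci3 at -1.35. In TXNIP KO mice 3 were higher and 1 lower (7.73% and 6.49%), with Acot3 at 2.36, Acot5 at 1.85 and Abcd2 at -0.62. Acot3 and Acot5 are neighbours in 1 gene cluster, so their windows can share peaks.

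Of 15 peroxin genes, which build the organelle and import its proteins, 0 were called for PPARG, for H3K27ac of the WT cohort or in TXNIP KO mice by limma. In TXNIP WT mice Pex7 was higher (0.58). In scaled PPARA 2 were higher, Pex13 (0.86) and Pex2 (0.82), and 3 lower, Pex10 the most (-0.88). The same limit of the filter holds for these 3 lower calls, and the same limit of the scaling for the 2 higher calls.

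Markers of other cell types were read beside these results. H3K27ac lay on 10 of 11 brown adipocyte loci and on 10 of 10 endothelial loci in all 14 libraries, and on none of 5 of 7 skeletal muscle loci (Ckm, Myod1, Acta1, Myh1, Myh4). Endothelial loci were higher in cold for PPARG in 7 of 9 (5.04% of all loci were) and for H3K27ac of the WT cohort in 4 of 10 (5.39%), where the summed H3K27ac was 193 to 245 kb at RT and 246 to 285 kb in cold. Fibroblast and preadipocyte loci were higher for PPARG in 3 of 6, and in H3K27ac of the WT cohort 1 of 7 was higher and 1 lower. Acox3 was called lower in both of these comparisons. The part of these cells in the results was not tested.

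Across the 35 libraries, the locus whose scaled cover was most like that of each member is given as a description, since all points share target, cohort and list length. Pex11a was most like Klf15 (Pearson r = 0.97), Scp2 most like Ubb (0.96) and Acox3 most like Ttc25 (0.96). Abcd3 was most like Gm36375 (0.94), Acaa1b like Gnao1 (0.93), Hsd17b4 like Rbm34 (0.86) and Crat like Gphn (0.83). Ehhadh (Knstrn, 0.74) and Acaa1a (Ptgfrn, 0.67) had the least like partners. Among the members themselves, Acaa1b and Pex11a were most alike (0.90).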

How the data were processed

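ChIP-seq peak lists of 35 libraries from mouse BAT were used. Per the submitters' processing notes reads were handled with MACS2 2.2.7.1, BWA 0.7.17, deepTools 3.4.3, Trim Galore 0.6.0 and SAMtools on build GRCm38.p6, with settings not given in the sources used here. Per the labels' protocols, 0.8% formaldehyde for 12 min fixed the H3K27ac samples, and 2 mM DSG for 25 min came first for the others. The authors deposited 1 narrowPeak list per library, not pooled. Each deposited peak has a score, a fold enrichment (ratio) and −log10 p- and q-values, which belong to the authors and were used only to describe or filter peaks. Peak lists give no read depth, so it is unknown, no interval or floor was computed, and binding and depth both can move the length of a list.

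Peaks of a library were merged, and covered bases per locus were scaled to the mean list total of the fit, raised by 500 bp and log2 transformed, which understates changes of thinly covered loci. A locus was tested if the number of libraries covering it reached the size of the smallest group, by two-sided limma 3.58.1 with a trended empirical Bayes step in R 4.3.3. Adjustment was Benjamini-Hochberg over all loci, with a threshold of 0.05. PPARG and PPARA had their own fits, and the 14 H3K27ac libraries shared 1. Lists of 1 group shared at most 0.027% identical intervals, so none was a copy of another. Each counted as a replicate, though this check cannot show that they came from separate animals. Sites were merged intervals of a target, held by a list that overlapped them by 1 bp. Python 3.11.15, numpy 2.4.6, pandas 2.3.3, scipy 1.17.1 and matplotlib 3.10.9 were used, and the code was tested on simulated data. All 9 members are named in every comparison, with up to 3 called loci per pathway list and comparison. The members and lists were chosen with earlier results of these data known. Alternatives were other scalings, offsets, filters, windows, overlaps and peak thresholds, separate fits, replicate blocks and leaving out each library.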

Additional observations from a re-analysis of the deposited data

How the results depend on the processing

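For single members, 756 of the values under the alternatives other than leaving out a library kept direction and side of the threshold (changes of sign among uncalled values are counted here), 27 lost and 12 gained a call and 5 reversed; leaving out a library kept 417, lost 32 and gained 8. The 5 reversals came without scaling to the list total: PPARA Acaa1b -1.01, Scp2 -1.04, Pex11a -1.05 and Crat -0.68, and TXNIP KO Pex11a 0.0052. By construction this leaves the list length in the value. Called PPARG members numbered 0 with no filter (cover in 1 library), with the gene body alone, with 25 kb each side and with the replicate block. Called PPARA members numbered 0 at equal list length. For H3K27ac, the WT cohort had 1 with a stricter peak threshold and 1 with a separate fit, and TXNIP KO had 2 with the gene body, 2 with stricter peaks, 2 at equal length and 1 with a separate fit. ERR1 members past 2-fold numbered 5 without scaling, 2 at an offset of 100 bp, and 1 each with the gene body, 25 kb and stricter peaks. Gained or lost PPARG sites numbered 5 with stricter peaks and 7 with an overlap of at least 50%, PPARA sites 1 at equal length and 6 in gene bodies, and H3K27ac WT regions 5 with the wider overlap. The causes were not tested.

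Leaving out 1 library in turn gave 0 called members for PPARG, 0 to 3 for PPARA, 1 to 4 for the H3K27ac WT cohort, 0 to 2 for TXNIP WT, 0 to 2 for TXNIP KO, 0 to 1 for KO against WT in cold, 0 to 1 for the cohort difference, and 0 for KO against WT at RT and for the difference of cold responses by genotype. The PPARA counts above 0 include Acox3, whose call is no support for a difference. Gained or lost sites ranged from 1 to 5 for PPARG, 10 to 18 for PPARA and 3 to 9 for H3K27ac regions. With 1 library left in a Txnip group, it is assumed to vary like the others.

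Replicate numbers were checked as pairs: correlations of same-numbered deviations were -0.03, 0.06 and -0.06 for PPARG, -0.05 and -0.02 for PPARA, 0.106, 0.091 and 0.068 for the WT cohort, -0.139 for TXNIP WT and -0.201 for TXNIP KO. In a group of 2 libraries the deviations are mirror images, so the Txnip values cannot decide on pairing. In the WT cohort the differently numbered pairs ran from -0.155 to 0.066. Pairing is thus neither shown nor excluded. With the replicate block, called members numbered 0 for PPARG, 4 for PPARA, 3 for the WT cohort, 1 for TXNIP WT and 3 for TXNIP KO. The 4 for PPARA include Acox3, whose call is no support for a difference. With crossed numbers, chosen after seeing the data, they numbered 2 for TXNIP WT and 3 for TXNIP KO.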
